A study of Homo sapiens with 16 samples.

Results

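The mRNAs described here encode 8 proteins that bind RNA carrying N6-methyladenosine (m6A), the most common internal methyl mark of mRNA. They are the YTH proteins YTHDC1, YTHDC2, YTHDF1, YTHDF2 and YTHDF3 and the insulin-like growth factor 2 mRNA-binding proteins IGF2BP1, IGF2BP2 and IGF2BP3. They were chosen by gene name, and all 8 are among the 16324 genes that both deposited tables list. The values come from a pull-down study of tagged proteins and do not give the amount or the activity of the reader proteins.

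The series is a RIP-seq study, in which RNA that comes down with a tagged protein is sequenced beside the RNA of the whole lysate, the input. Its 16 libraries come from a head and neck squamous carcinoma line labelled UM-SCC-1, infected with lentivirus and selected with puromycin to express a Strep-tagged protein. Strep is a short peptide caught on StrepTactin beads. There are 3 ALKBH5 pull-down libraries, 2 RBM33 pull-down libraries and 3 pull-down libraries of the vector Strep-Vec-1. The inputs number 3 for ALKBH5, 2 for RBM33 and 3 for the vector. ALKBH5 removes m6A from RNA, and RBM33 is an RNA-binding protein that the study's title names as an m6A reader acting with ALKBH5. Lines with RBM33 siRNA, which the design text also names, were not analysed here.

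The files hold the authors' own comparisons, 1 table for ALKBH5 and 1 for RBM33, with no value per library. Both comparisons carry the label siCtrl, presumably a control siRNA, which no sample title holds. Whether the libraries listed above received it is therefore not known. Neither table names its contrast or the direction of its ratio. Pull-down over the bait's own input is the likely contrast, but no label states it, so each sign is given as deposited and no value is called enriched or depleted. Under that contrast the vector pull-downs would not enter the values. RNA held by the beads or the tag alone would then not be taken off, and its share was not tested. Each bait's mRNA was positive in its own of the authors' deposited tables, with log2 fold changes of 1.28 for ALKBH5 (adjusted p = 0.00158) and 3.41 for RBM33 (adjusted p = 5.14e-05). RBM33 mRNA was also positive in the authors' deposited table on ALKBH5, at 1.17 (adjusted p = 7.1e-06). ALKBH5 mRNA was at -0.21 in that on RBM33, with no call (adjusted p = 0.245). The bait values thus do not settle the direction of the ratio. No standard deviation can be given. The standard error of each log2 fold change was taken from the deposited F statistic instead, and each 95% interval below rests on it. Whether the 2 comparisons share libraries is not stated, so their values stand side by side and the difference between them was not tested.

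By way of background, m6A is written on nascent RNA by a nuclear complex built around METTL3 and METTL14, and it is removed by ALKBH5 and FTO. The YTH domain holds the methylated base in an aromatic pocket. YTHDC1 is nuclear and acts in splicing and export of methylated RNA, the YTHDF proteins are cytoplasmic and are known for mRNA decay and translation, and YTHDC2 is an RNA helicase required for meiosis in mouse germ cells. The IGF2BP proteins bind RNA through KH domains and are known for stabilising their target mRNAs. IGF2BP1 and IGF2BP3 are abundant in the embryo and in many tumours and scarce in most adult tissues.

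The cell label was checked against marker genes, because the IGF2BP mRNAs are themselves marks of an embryonic or tumour state. Of 12 squamous epithelial markers, 8 have no row in either table (KRT5, KRT14, KRT17, KRT6A, TP63, DSG3, SFN and EPCAM). The 4 listed ones averaged 1.51 to 14.9 CPM (read counts scaled to a fixed library total) in the authors' deposited table on ALKBH5 and 1.26 to 14.5 CPM in that on RBM33. Of 6 genes chosen as marks of an embryonic kidney line, 4 are listed and INA and NEFH have no row. The neurofilament mRNAs NEFL and NEFM averaged 274 and 210 CPM in the authors' deposited table on ALKBH5 and 171 and 145 CPM in that on RBM33. The developmental transcription factors were lower, HOXA10 with 24.8 and 20.3 CPM and PAX2 with 3.55 and 3.61 CPM in the authors' deposited tables. Of 4 fibroblast markers, COL1A1 averaged 21.4 and 15.1 CPM and COL3A1 6.18 and 5.77 CPM in the authors' deposited tables, and COL1A2 and PDGFRB have no row. Markers of leukocytes and endothelium have no row. The absence of most squamous markers goes against the label, no other cell type is assigned, and what this does to the reader values was not tested.

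Most reader mRNAs lay close to 0 in both comparisons, and YTHDC2 was the one with a large value of small error. At the authors' adjusted p under 0.05, the authors' deposited table on ALKBH5 has 1 of 8 reader mRNAs positive (YTHDC2) and 1 negative (IGF2BP2), where 59.6% of all genes were called, 30.5% positive and 29.1% negative. The authors' deposited table on RBM33 has 2 of 8 positive (YTHDC2 and YTHDC1) and 1 negative (IGF2BP2), where 51.1% of all genes were called, 24.0% positive and 27.0% negative. The reader mRNAs were thus called in 25% and 37.5% of cases, lower shares than those of all genes in both tables. All 8 are in the upper range of abundance, at or above the median. Adjusted over such genes alone, 75.8% of genes were called for ALKBH5, with 4 of the 8 readers among them, and 70.5% for RBM33, with 3 of the 8. Their median log2 fold change was 0.24 in the authors' deposited table on ALKBH5, against 0.03 over all genes, and 0.26 in that on RBM33, against -0.02 over all genes. All 6 uncalled readers in the ALKBH5 comparison had an interval within 1 log2 unit of 0, and so had 4 of the 5 uncalled ones in the RBM33 comparison. YTHDF1 was the exception.

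**Figure D1:**
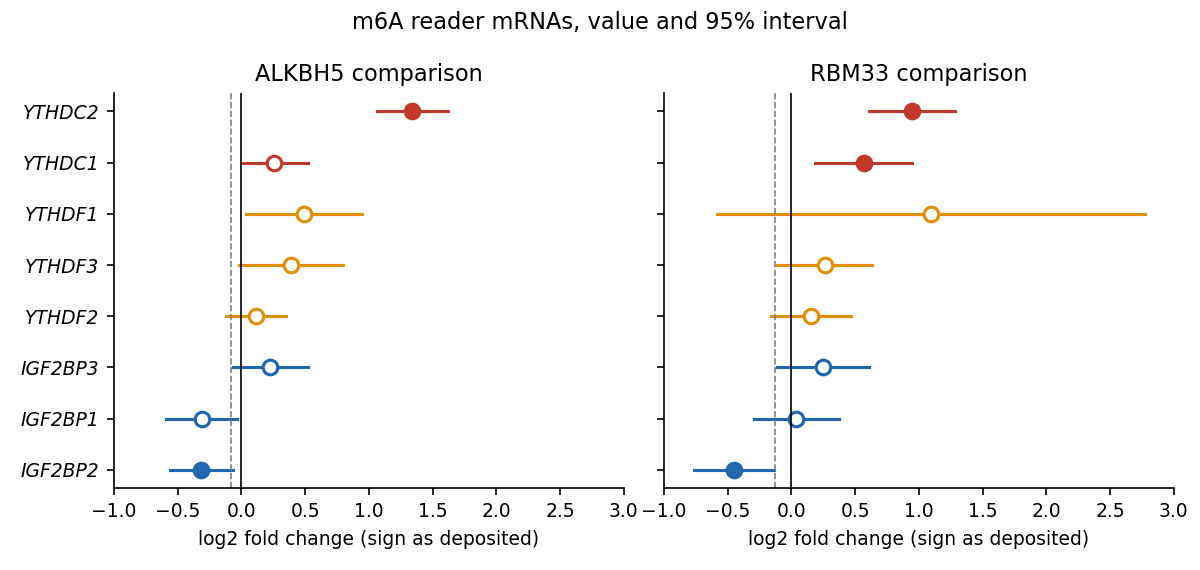
Log2 fold change of each reader mRNA (points, filled where the adjusted p is under 0.05) with its 95% interval (lines) in both comparisons; the solid line marks 0 and the dashed line the median of protein-coding genes. YTHDC2 stands at 1.34 and 0.94 with short intervals, and YTHDF1 has the widest interval, from -0.59 to 2.78, in the RBM33 comparison.

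YTHDC2, the helicase among the YTH proteins, is encoded on chromosome 5 (ENSG00000047188, 113513694 to 113595285, plus strand, hg38). The authors' deposited table on ALKBH5 gives its mRNA a log2 fold change of 1.34, a 2.54-fold difference (adjusted p = 1.45e-06). The standard error was 0.13, and the interval ran from 1.06 to 1.62. On RBM33 the authors' deposited table gives 0.94, a 1.92-fold difference (adjusted p = 0.00039), with a standard error of 0.15 and an interval from 0.61 to 1.28. In the ALKBH5 comparison its interval overlapped those of 0 of the 7 other readers and lay above all of them. In the RBM33 comparison it lay above those of 3, namely YTHDF2, IGF2BP1 and IGF2BP2, and overlapped the other 4. The call held under every alternative threshold and scaling tried except a minimum of 1 log2 unit, which the RBM33 value misses.

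YTHDC1, the nuclear reader, is encoded on chromosome 4 (ENSG00000083896, 68310387 to 68350090, minus strand). Its mRNA had 0.26 in the authors' deposited table on ALKBH5 (adjusted p = 0.0861), and the interval from -0.01 to 0.52 included 0. For RBM33 the authors' deposited table gives 0.57, a 1.48-fold difference (adjusted p = 0.0174), with a standard error of 0.17 and an interval from 0.19 to 0.95. YTHDC1 was thus called for RBM33 and not for ALKBH5, while the 2 intervals overlap widely. At a stricter adjusted p of 0.01 the RBM33 call was lost.

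The YTHDF mRNAs encode close cytoplasmic relatives, and none of the 3 was called in either of the authors' deposited tables, which the authors made with edgeR. At an unadjusted p under 0.05, 1 of the 3 (YTHDF1) passed in the ALKBH5 comparison and 0 in the RBM33 comparison. YTHDF2, known for recruiting the CCR4-NOT deadenylase to methylated mRNA, is encoded on chromosome 1 (ENSG00000198492, 28736621 to 28769775, plus strand). Its mRNA was at 0.12 for ALKBH5 (adjusted p = 0.378) and 0.15 on RBM33 (adjusted p = 0.399) in the authors' deposited tables. The intervals, from -0.12 to 0.35 and from -0.16 to 0.47, leave room for differences of up to 1.28-fold and 1.38-fold. YTHDF3, which acts together with the other YTHDF proteins, is encoded on chromosome 8 (ENSG00000185728, 63168553 to 63212786, plus strand). Its mRNA had 0.39 for ALKBH5 (adjusted p = 0.0915) and 0.26 on RBM33 (adjusted p = 0.224) in the authors' deposited tables. Its intervals ran from -0.02 to 0.80 and from -0.11 to 0.64.

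YTHDF1, known for promoting translation of methylated mRNA, had the least certain value of the family. It is encoded on chromosome 20 (ENSG00000149658, 63195429 to 63216139, minus strand). The log2 fold change was 0.49 on ALKBH5, per the authors' deposited table (adjusted p = 0.059), with a standard error of 0.21 and an interval from 0.04 to 0.95. Its value of 1.10 in the authors' deposited table on RBM33 was the highest of any reader there, yet not called (adjusted p = 0.218). Its standard error of 0.62 was 3.99 times the median of the 500 protein-coding genes nearest in abundance and higher than in all 500. The interval from -0.59 to 2.78 spans a difference of up to 6.85-fold in the positive direction and also includes 0. The other 7 readers had standard errors of 0.14 to 0.17 in that comparison, 0.93 to 1.13 times those of genes of like abundance.

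The degrees of freedom that link F to p were also low for YTHDF1. They come from the same fit as the standard error and are no separate evidence. They were 4.16 for YTHDF1 in the RBM33 comparison, against 11.18 for every other reader and for 98.6% of all genes. No more than 6 of the 16324 genes had fewer. Average abundance of YTHDF1 mRNA also differed between the tables, at 74.2 CPM in the authors' deposited table on RBM33 and 46.4 CPM in that on ALKBH5, a difference of 0.67 in log2 CPM. Such a gap was larger than that of 91.5% of all genes, whereas the other readers differed by -0.24 to 0.33 in log2 CPM. Which library carries the spread cannot be seen without values per library. In the ALKBH5 comparison the standard error of YTHDF1 was 1.47 times that of genes of like abundance.

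**Figure D2:**
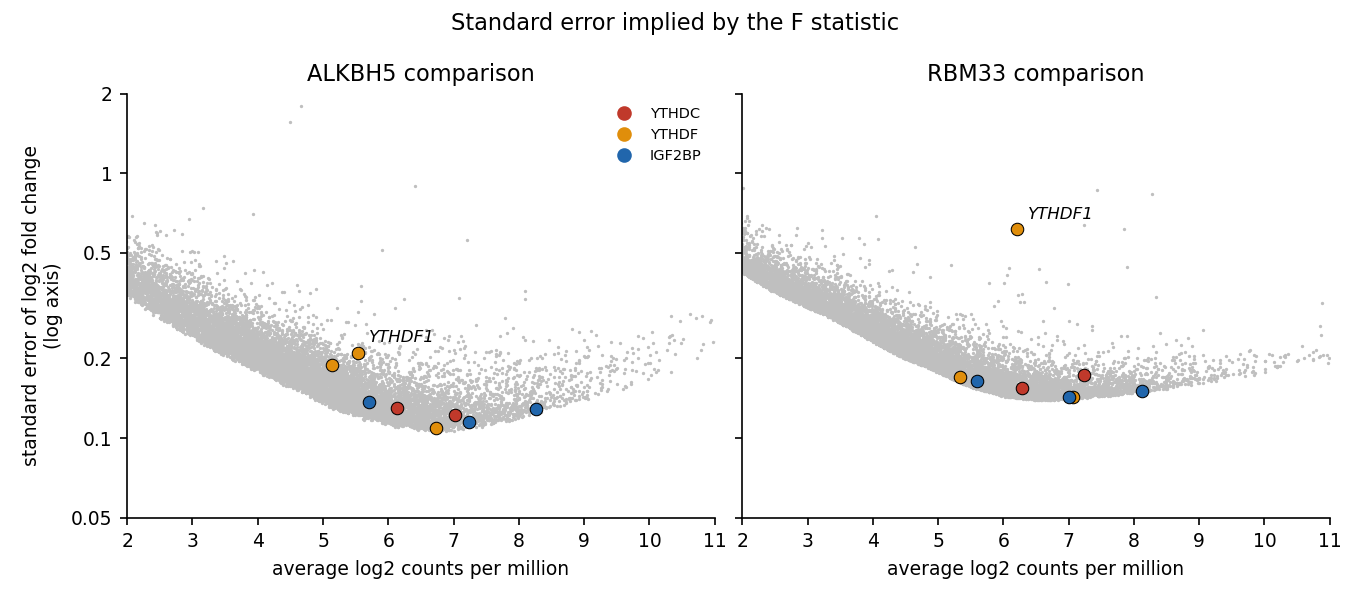
Standard error of the log2 fold change (log axis) against average abundance for protein-coding genes (grey) and the reader mRNAs (coloured by family) in both comparisons; genes outside the axes are not drawn. YTHDF1 sits at 0.62 in the RBM33 comparison, far above the grey band, and the other 7 readers lie within 0.14 to 0.17.

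Of the IGF2BP mRNAs, IGF2BP2 was called negative in both tables and the other two were not called in either. IGF2BP2, a reader linked to insulin signalling and type 2 diabetes risk, is encoded on chromosome 3 (ENSG00000073792, 185643130 to 185825042, minus strand). The log2 fold change was -0.32 in the authors' deposited table on ALKBH5 (adjusted p = 0.0301), with a standard error of 0.12 and an interval from -0.56 to -0.07. For RBM33 it was -0.45 in the authors' deposited table (adjusted p = 0.0205), with a standard error of 0.14 and an interval from -0.76 to -0.14. These sizes are 1.24-fold and 1.37-fold. Both calls were lost when fold changes were centred on the median of protein-coding genes, which is itself below 0 at -0.08 and -0.13. The values were then -0.24 (adjusted p = 0.0934) and -0.32 (adjusted p = 0.0826). Over all alternatives the adjusted p ranged from 0.0234 to 0.0934 for ALKBH5 and from 0.0145 to 0.0826 for RBM33.

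IGF2BP1, which was first described as a protein that stabilises MYC mRNA and localises actin mRNA, is encoded on chromosome 17 (ENSG00000159217, 48997385 to 49056145, plus strand). Its mRNA was at -0.31 in the authors' deposited table on ALKBH5, just missing the threshold (adjusted p = 0.051), with an interval from -0.59 to -0.03. On RBM33 it was at 0.04 in the authors' deposited table (adjusted p = 0.849). The interval there, from -0.29 to 0.37, leaves room for a difference of up to 1.29-fold. The ALKBH5 value changed sides with the choice of genes adjusted over: the adjusted p was 0.04995 over protein-coding genes alone and 0.0408 over genes of at least median abundance, and it ranged up to 0.136. IGF2BP3, the third of the family, is encoded on chromosome 7 (ENSG00000136231, 23310209 to 23470491, minus strand). It stood at 0.23 for ALKBH5 (adjusted p = 0.17) and 0.25 on RBM33 (adjusted p = 0.231) in the authors' deposited tables. Its intervals, from -0.07 to 0.52 and from -0.11 to 0.61, include 0.

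Other listed genes overlap 2 of the 8 readers. The pseudogene AC091133.5 lies within IGF2BP1 on the same strand over 308 bases and averaged 2.42 CPM in the authors' deposited table on ALKBH5. MALSU1, a mitochondrial ribosome factor on the opposite strand, shares 1521 bases with IGF2BP3 and averaged 22.2 CPM in the authors' deposited table on ALKBH5. MALSU1 stood at -1.95 for ALKBH5 and -1.55 on RBM33 in the authors' deposited tables. Whether the counting used strand is not given in the sources used here: some MALSU1 reads may be in the IGF2BP3 value. No listed gene overlaps the other 6 readers.

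All 8 reader mRNAs were well measured, above the median abundance of 16.5 CPM over all genes in both of the authors' deposited tables. IGF2BP1 was the most abundant, with 306 CPM in the authors' deposited table on ALKBH5 and 279 CPM in that on RBM33, which is above 97.8% and 97.5% of the other protein-coding genes. Below it in the authors' deposited table on ALKBH5 came IGF2BP2 with 151 CPM, YTHDC1 with 130 CPM and YTHDF2 with 106 CPM. YTHDC2 with 70.0 CPM, IGF2BP3 with 52.4 CPM, YTHDF1 with 46.4 CPM and YTHDF3 with 35.1 CPM followed in the authors' deposited table. For RBM33 the order in the authors' deposited table was IGF2BP1 with 279 CPM, YTHDC1 with 151 CPM, YTHDF2 with 134 CPM, IGF2BP2 with 128 CPM, YTHDC2 with 77.8 CPM, YTHDF1 with 74.2 CPM, IGF2BP3 with 48.6 CPM and YTHDF3 with 40.3 CPM. These averages run over both arms of the comparison and carry no error, so neighbours in the order cannot be told apart.

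**Figure D3:**
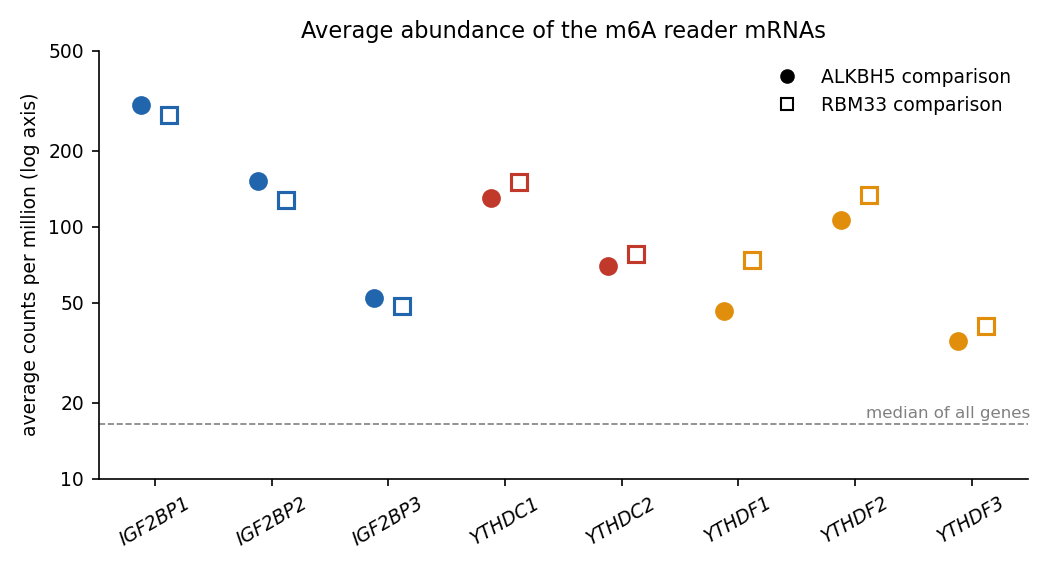
Average abundance of each reader mRNA in CPM (log axis) in the ALKBH5 comparison (circles) and the RBM33 comparison (squares), with the median of all genes as a dashed line at 16.5 CPM. IGF2BP1 is highest at 306 and 279 CPM, and YTHDF3 lowest at 35.1 and 40.3 CPM.

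Levels between genes are better compared per length. The only length at hand is the listed gene length, which sums annotated sequence and is not that of 1 mRNA. Per kilobase of it, IGF2BP1 (31.7 CPM), YTHDF2 (28.5 CPM) and IGF2BP2 (28.4 CPM) led in the ALKBH5 comparison. In the RBM33 comparison YTHDF2 (35.9 CPM per kilobase) stood before IGF2BP1 (29.0 CPM per kilobase) and IGF2BP2 (24.0 CPM per kilobase). YTHDC2, YTHDF3 and IGF2BP3 were lowest in both comparisons, at 5.70 to 6.48 CPM per kilobase for ALKBH5 and 5.70 to 7.20 CPM per kilobase for RBM33.

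In both tables the log2 fold change followed the listed length across protein-coding genes, which are not independent replicates (Spearman rho 0.41 for ALKBH5 and 0.45 for RBM33 over 13210 genes). Each reader was therefore set beside the 500 protein-coding genes nearest to it in listed length, as a description with no test. All 5 YTH mRNAs were above the median of such genes in the ALKBH5 comparison, at percentiles 53.8 to 82.8, and all 5 in the RBM33 comparison, at percentiles 58.4 to 93.4. The 3 IGF2BP mRNAs were below it in the ALKBH5 comparison, at percentiles 20.8 to 48.2, and in the RBM33 comparison, at percentiles 34.0 to 46.8. Beside the 500 protein-coding genes nearest in abundance, the IGF2BP mRNAs were instead above the median. For ALKBH5 and RBM33 the percentiles were 70.2 and 75.4 for IGF2BP1, 60.8 and 55.0 for IGF2BP2, and 69.2 and 71.4 for IGF2BP3. By abundance the YTH mRNAs were at 67.4 to 92.6 and 71.6 to 91.2. Among all other protein-coding genes, with no matching, IGF2BP1 was at percentiles 41.3 for ALKBH5 and 56.0 for RBM33. IGF2BP2 was at 41.2 and 38.2, and IGF2BP3 at 60.9 and 62.9. The position of the IGF2BP mRNAs against the median thus depends on the genes they are set beside.

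Length also changes which reader stands out. YTHDC2 has the longest listed length of the readers, 10805 bases, and genes of like length had a median of 0.45 in the ALKBH5 comparison and 0.46 in the RBM33 comparison. Against them YTHDC2 stood at percentile 81.2 for ALKBH5 and 71.2 for RBM33, so its value lay in the upper part of what genes of that length showed but not at the edge. YTHDF1 has the shortest, 3206 bases, where the medians were -0.46 and -0.53. Its percentiles of 82.8 for ALKBH5 and 93.4 for RBM33 were the highest of any reader, and the RBM33 one rests on the uncertain value described above. IGF2BP1, at 9631 bases, had the lowest percentile of any reader in the ALKBH5 comparison, 20.8, where genes of like length had a median of 0.46.

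**Figure D4:**
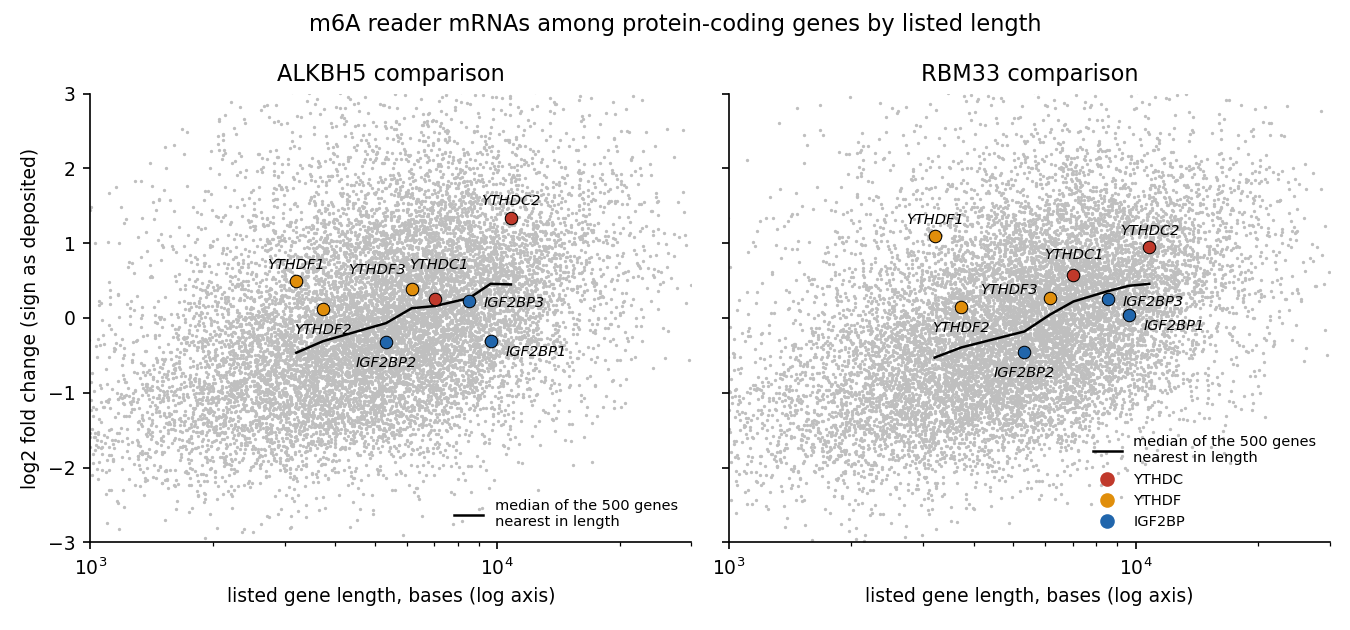
Log2 fold change against listed gene length (log axis) for protein-coding genes (grey) and the reader mRNAs (coloured by family) in both comparisons; the black line joins the median of the 500 genes nearest in length to each reader, and genes outside the axes are not drawn. The 5 YTH mRNAs lie above the line and the 3 IGF2BP mRNAs below it in both panels.

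Other genes of the m6A pathway give the readers a setting. Each count below stands beside the share of all genes called. For ALKBH5 it was 59.6%, with 30.5% positive and 29.1% negative. For RBM33 it was 51.1%, with 24.0% positive and 27.0% negative. Of 11 m6A methyltransferase genes, the authors' deposited table on ALKBH5 calls 3 positive and 3 negative, with a median of 0.23, and that on RBM33 calls 5 positive and 3 negative, with a median of 0.25. Their medians were close to those of the readers, and their values spread further. RBM15, which guides the complex to RNA, stood at 1.77 for ALKBH5 (adjusted p = 1.11e-07) and 1.65 on RBM33 (adjusted p = 3.78e-05) in the authors' deposited tables. ZC3H13, a scaffold of the complex, had 0.77 and 0.94 in the authors' deposited tables, and METTL5, which methylates ribosomal RNA, had -1.21 and -1.53. The demethylase FTO was at -0.26 for ALKBH5 (adjusted p = 0.115) and -0.03 on RBM33 (adjusted p = 0.877) in the authors' deposited tables.

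Of 14 other RNA-binding proteins described as m6A-associated, among them the bait RBM33, 2 were positive and 4 negative for ALKBH5 (median -0.07) and 2 positive and 3 negative on RBM33 (median -0.02) in the authors' deposited tables. That is 42.9% and 35.7% called, against 59.6% and 51.1% of all genes. HNRNPC, which binds sites opened by m6A, had -1.24 and -1.12, and PRRC2A, a large RNA-binding protein, had 0.95 and 1.29 in the authors' deposited tables. Partners of YTHDF proteins and YTHDC2 in decay and translation were called in both directions, with 6 positive and 10 negative of 21 for ALKBH5 (median -0.30) and 6 and 8 on RBM33 (median -0.21) in the authors' deposited tables. That is 76.2% and 66.7% called. The microRNA silencing scaffolds were positive, with TNRC6A at 1.26 and 1.49 and TNRC6B at 1.13 and 1.32 in the authors' deposited tables. The deadenylase CNOT7 was negative at -1.34 and -1.35, and RIDA, the adaptor between YTHDF2 and RNase P/MRP, at -2.21 and -2.13 in the authors' deposited tables.

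Of 9 nuclear partners of YTHDC1, 4 were positive and 3 negative for ALKBH5 (median 0.25), and 3 and 3 on RBM33 (median 0.29) in the authors' deposited tables. That is 77.8% and 66.7% called, against 59.6% and 51.1% of all genes. The export receptor NXF1 had 0.80 and 0.65, and the export adaptor ALYREF -1.35 and -1.03 in the authors' deposited tables. Of 18 RNAs known as bound by IGF2BP proteins, 17 are listed. In the authors' deposited table on ALKBH5, 0 were positive, also at an unadjusted p under 0.05 of the edgeR fit, and 9 were negative (median -0.87). On RBM33 the authors' deposited table calls 1 positive, CTNNB1 (beta-catenin) at 0.46, and 8 negative (median -0.70). IGF2 itself stood at -1.37 and -1.44, PABPC1, the poly(A)-binding protein, at -1.62 and -1.40, and MYC at 0.15 and 0.29, with no call, in the authors' deposited tables. No list was tested against another, so no pathway group is called particular here.

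**Figure D5:**
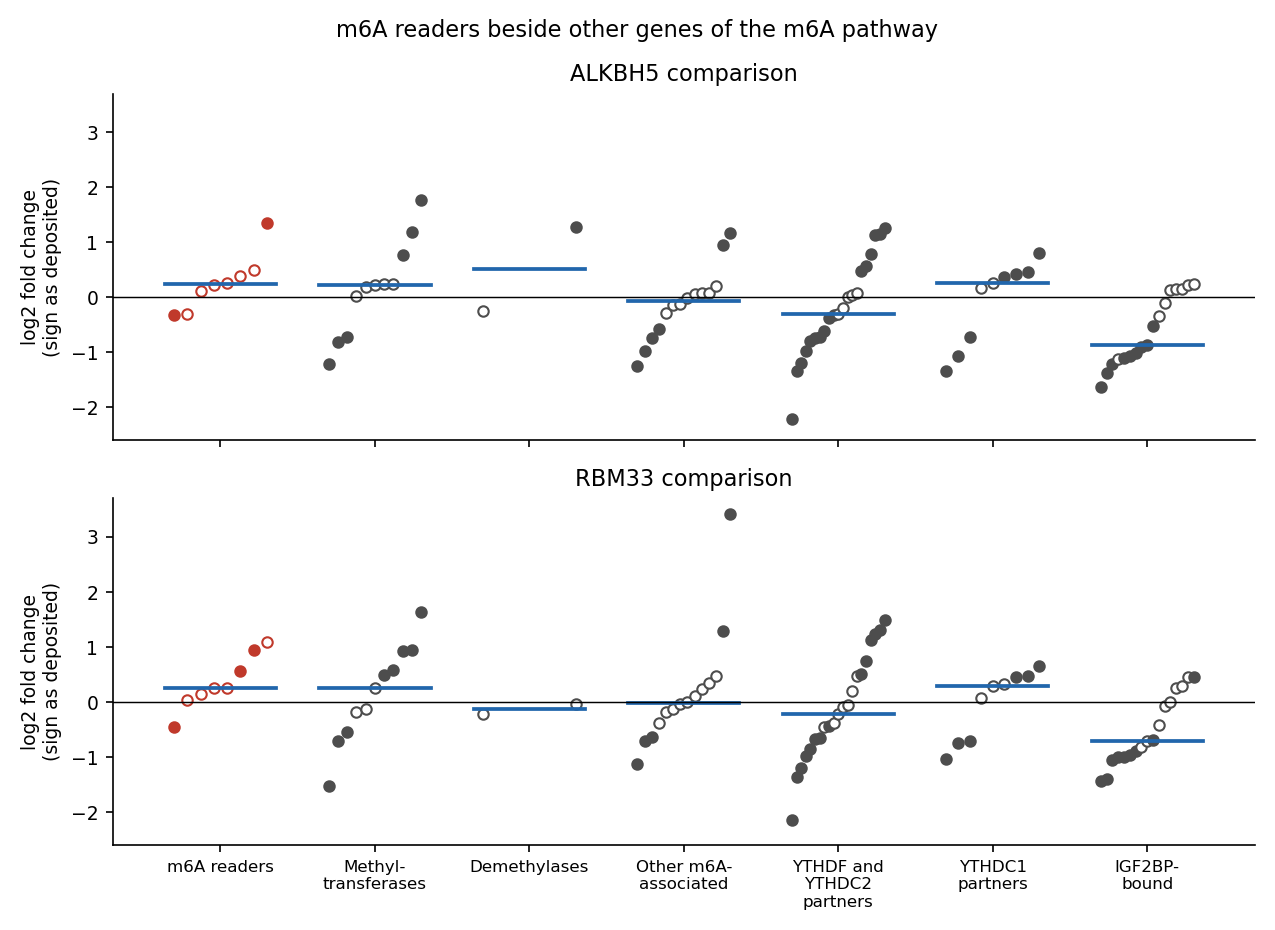
Log2 fold change of the reader mRNAs (red) and of other m6A pathway genes by list (grey) in both comparisons, filled where the adjusted p is under 0.05, with each list's median as a blue bar. The readers cluster near 0 with 2 of 8 and 3 of 8 filled, and the IGF2BP-bound RNAs have the lowest medians, -0.87 and -0.70. Of all genes 59.6% were called for ALKBH5 and 51.1% for RBM33.

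The genes nearest to a reader in both log2 fold changes at once were sought among 7298 abundant protein-coding genes for the readers with the highest and the lowest mean value. Likeness was the Euclidean distance over the 2 comparisons, which is little to go by. For YTHDC2 they were the splicing factor SRSF5 at 1.37 and 0.95, NISCH at 1.37 and 0.94 and SBF1 at 1.32 and 0.97, in the authors' deposited tables for ALKBH5 and RBM33. For IGF2BP2 they were NECAP2 at -0.31 and -0.46, CKAP2L at -0.33 and -0.46 and CNOT8, a CCR4-NOT deadenylase, at -0.30 and -0.45 in the authors' deposited tables.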

How the data were processed

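The submitters' processing notes name edgeR 3.24.3, HISAT2 2.1.0, cutadapt 1.18, Subread 1.6.4 with featureCounts, and build hg38. The annotation release, low-count filter and use of strand are not given there. Each deposited table lists per gene, per the file headers, the log2 fold change, the log2 CPM averaged over libraries, the F statistic (a score of no fixed range) with its p-value and adjusted p-value, and a length. No column holds values per sample, so library depth is unknown, and the count model planned as first choice was replaced by the authors' test, the fallback planned with it. Whether replicates are separate cultures is not stated, so p-values may measure technical spread.

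Recomputed Benjamini-Hochberg values equalled the deposited ones over 16324 genes. The standard error is the size of the log2 fold change over the square root of F. The degrees of freedom are those at which F gives the deposited p, and intervals follow from the t distribution at 95%. They are approximate. These steps were run on simulated data built with the same formulas and with the errors found here. That checks the arithmetic only, and not whether such errors hold for an edgeR fit on counts. The lowest degrees of freedom, 4.22 for ALKBH5 and 2.31 for RBM33, lie just over the 4 and 2 that pull-down against own input leaves. Calls use adjusted p under 0.05; average CPM is 2 to the power of the average log2 CPM. Alternatives were a threshold of 0.01, a minimum of 1 log2 unit, genes of at least median abundance, adjustment over protein-coding genes, and centring. Named are all readers, up to 3 called genes of largest size per list and direction, and the 3 nearest genes; FTO, MYC and MALSU1 fall outside that rule and were named after their values were seen. Members and lists were chosen with earlier results of these data known. Transcript and protein sequences were not used here. Python 3.11.15, scipy 1.17.1 and pandas 2.3.3 were used.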

Additional observations from a re-analysis of the deposited data

How the results depend on the processing

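Of the 5 alternatives run, only centring alters the log2 fold changes, so the signs of the readers are no test of the others. The centres were -0.08 for ALKBH5 and -0.13 for RBM33, and each negative reader lay further below 0. No sign could therefore change there either. Centring on the protein-coding median gave 4 positive and 0 negative readers for ALKBH5, adding YTHDC1 at 0.34 (adjusted p = 0.0298), YTHDF1 at 0.57 (adjusted p = 0.0319) and YTHDF3 at 0.47 (adjusted p = 0.0463) and losing IGF2BP2 at -0.24, where 32.6% of all genes were positive and 26.9% negative. For RBM33 it left 0 negative, with IGF2BP2 at -0.32, where 23.9% of all genes were negative. By construction a centre below 0 moves every value up. A threshold of 0.01 left 0 negative readers for ALKBH5 (23.6% of all genes) and 1 positive and 0 negative for RBM33 (16.6% and 21% of all genes), losing IGF2BP2 at -0.32 and -0.45 and YTHDC1 at 0.57. A minimum of 1 log2 unit left 0 negative for ALKBH5 (16.2% of all genes) and 0 of either sign for RBM33 (33.8% of all genes), where YTHDC2 is at 0.94, YTHDC1 at 0.57 and IGF2BP2 at -0.45; IGF2BP2 for ALKBH5 is at -0.32. Among genes of at least median abundance, where 75.8% of genes were called for ALKBH5 and 70.5% for RBM33, ALKBH5 had 2 positive and 2 negative readers, adding YTHDF1 at 0.49 (adjusted p = 0.0475) and IGF2BP1 at -0.31; adjustment over protein-coding genes, of which 33.4% were negative, also gave 2 negative with IGF2BP1 at -0.31. The zero counts at a threshold of 0.01 rest on the authors' edgeR p-values, of which 4 readers for ALKBH5 and 3 for RBM33 were under 0.05 unadjusted. Those at a minimum of 1 log2 unit come from the size cut. Those under centring come from p-values computed anew with the standard error taken from F. Of 80 single reader values under alternatives, 65 kept their side of the threshold. A threshold of 0.01 and a minimum of 1 log2 unit can only remove calls. Uncalled readers therefore kept their side under both by construction, and the 65 is no measure of stability. Of 120 list counts, 20 moved by over 1.5 times. No paired analysis was possible because values per library are not given, and leaving out replicates was not run for that reason.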
